A study of Homo sapiens with 6 samples.

Results

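The peaks described here lie in the pericentromeric parts of 9 human chromosomes or on reference sequences that are not part of a main chromosome. They were taken by position, not by score or sequence, on genome build GRCh38. This choice was made with earlier results of these data known. A peak was a member if its midpoint lay in the windows of chr1 120 to 150 Mb, chr2 86 to 97 Mb, chr4 48 to 52 Mb, chr10 38 to 43 Mb, chr16 33 to 47 Mb, chr17 21 to 27 Mb, chr20 25 to 32 Mb, chr21 5 to 12 Mb or chr22 10 to 18 Mb, or if it lay on any sequence other than chromosomes 1 to 22, X, Y and the mitochondrial genome. Of 36932 peaks in all, 524 were members. The windows held 375 of them and the other sequences held 149.

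The study used chromatin isolation by RNA purification with sequencing of the captured DNA (ChIRP-seq). In this assay biotinylated DNA oligonucleotides pull down an RNA together with the chromatin it touches. The RNA was CRLM1, a long noncoding RNA annotated as LINC01767 on chromosome 1, and the cells were HCT116, a line from a human colorectal carcinoma. There were 6 libraries, with 2 each of a pull-down with CRLM1 antisense oligos, a pull-down with LacZ antisense oligos, which match a bacterial gene that the cells lack, and Input genomic DNA. All were made from formaldehyde-crosslinked, sonicated chromatin of this 1 line. The labels name no other treatment and do not say whether the replicates came from separate cultures. Each CRLM1 pull-down was set against the Input and against the LacZ pull-down of the same number, which gave 4 peak lists.

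The lists gave a position and a score for each peak and no read counts, so the depth of the libraries is unknown. Replicate 1 had 9416 peaks against Input and 10329 against LacZ, whereas replicate 2 had 16822 against Input and 365 against LacZ. The replicate 2 list against LacZ stood apart by its size, so the values of the replicates against LacZ are given side by side. The target served as a check on the pull-down: the LINC01767 gene (chr1:56414918-56417137, plus strand) carried 1 peak in each list, with scores of 1008.27 and 1466.89 in replicate 1 (Input, then LacZ as control) and 1580.45 and 935.57 in replicate 2. All 9 CRLM1 probes shared a word of 15 bases with this gene, and none of the 524 members held such a word of a CRLM1 or a LacZ probe. Such words were rare elsewhere too. Among main-chromosome peaks outside the windows, 10 of 9137 (Input) and 8 of 10255 (LacZ) held a CRLM1 word in replicate 1. In replicate 2 these were 10 of 16652 and 1 of 362. At these shares few or no members would hold one, so their lack of such words does not set them apart from other peaks.

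The regions around human centromeres are built largely from tandem repeats. Alpha satellite, made of monomers of about 170 bases, occupies the centromeres themselves. Human satellites II and III, which lie beside it on several chromosomes, are derived from the pentamer CATTC, read as GAATG on the opposite strand. Satellite III keeps long runs of nearly perfect pentamers, whereas satellite II is more diverged. Many unplaced and unlocalized sequences of the assembly are fragments of such arrays. Short reads from a repeat often match many copies, so a peak there marks a sequence family at least as much as a position.

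The sequences below come from the reference genome inside member peaks and show the repeats that the lists picked out. Each is 150 bases, plus strand, 5′ to 3′. It was picked as the stretch of its region with the most pentamer copies or the highest identity at the marked lag. The first 5 are from the regions with the highest scores called in both replicates against Input, 1 region for each of 5 sequences, and capitals mark each copy of CATTC or GAATG.
chr4:49110672-49110821: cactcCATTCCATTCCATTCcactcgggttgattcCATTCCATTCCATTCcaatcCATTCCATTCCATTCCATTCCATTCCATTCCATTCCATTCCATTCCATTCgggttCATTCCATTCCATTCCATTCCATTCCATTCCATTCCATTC
KI270729.1:947-1096: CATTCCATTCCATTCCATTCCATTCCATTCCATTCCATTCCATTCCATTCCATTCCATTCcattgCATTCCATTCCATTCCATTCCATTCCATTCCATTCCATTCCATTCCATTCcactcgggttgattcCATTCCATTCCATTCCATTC
chr10:41896461-41896610: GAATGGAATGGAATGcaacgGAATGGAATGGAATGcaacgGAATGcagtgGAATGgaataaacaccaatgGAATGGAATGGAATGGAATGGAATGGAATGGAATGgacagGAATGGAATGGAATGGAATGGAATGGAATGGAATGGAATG
GL000216.2:80190-80339: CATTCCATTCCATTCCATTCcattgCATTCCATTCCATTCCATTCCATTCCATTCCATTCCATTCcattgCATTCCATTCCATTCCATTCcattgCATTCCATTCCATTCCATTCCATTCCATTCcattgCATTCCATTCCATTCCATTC
chr20:31057866-31058015: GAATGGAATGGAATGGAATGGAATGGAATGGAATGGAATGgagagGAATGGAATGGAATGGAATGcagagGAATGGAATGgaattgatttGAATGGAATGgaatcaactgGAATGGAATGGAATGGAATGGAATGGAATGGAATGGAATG
These stretches held between 23 and 26 pentamer copies each. Over the whole peaks of replicate 1 against Input the density was lower, from 9.552 to 14.2 copies per 100 bases. The chr4, KI270729.1 and GL000216.2 stretches carried CATTC on the plus strand, and the chr10 and chr20 stretches carried GAATG.

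A further stretch comes from the highest-scoring peak of the chr16 window in replicate 2 against Input and shows the diverged form, with only 8 copies of GAATG in capitals.
chr16:46390526-46390675: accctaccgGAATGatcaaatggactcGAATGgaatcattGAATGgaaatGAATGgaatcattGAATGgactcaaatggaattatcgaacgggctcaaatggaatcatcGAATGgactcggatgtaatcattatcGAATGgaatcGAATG
In the next stretch, from the highest-scoring contig peak of replicate 2 against Input, capitals mark bases identical to the base 42 positions further on.
KI270467.1:3099-3248: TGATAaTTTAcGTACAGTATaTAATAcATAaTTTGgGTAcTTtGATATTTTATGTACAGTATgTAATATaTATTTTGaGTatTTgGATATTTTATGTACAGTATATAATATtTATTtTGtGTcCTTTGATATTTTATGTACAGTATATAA
The last is from the contig peak with the highest score among those with at least 60% identity at a lag near 170 bases and no tandem pentamer, and capitals mark identity to the base 170 positions further on.
KI270519.1:113911-114060: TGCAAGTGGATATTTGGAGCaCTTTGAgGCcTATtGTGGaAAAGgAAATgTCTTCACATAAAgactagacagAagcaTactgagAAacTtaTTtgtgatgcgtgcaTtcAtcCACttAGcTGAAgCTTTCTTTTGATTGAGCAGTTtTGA
In the AT-rich stretch of KI270467.1, 132 of the 150 bases matched the next unit, and in the KI270519.1 stretch 97 did. Over the whole peaks the identity at these lags was 69.7% and 68.31%. The KI270519.1 peak is 183 bases wide, so nearly all the bases compared at a lag of 170 lay past its end.

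Pentamer arrays made up most of the window peaks called against Input in replicate 1, just under 50% of those in replicate 2, and none of those called against LacZ. A peak was counted as tandem pentamer when it held at least 4 copies of CATTC, or of GAATG, per 100 bases. Of the 194 window peaks of replicate 1 against Input, 152 (78.4%) passed this limit, against 1.85% of all main-chromosome peaks of that list. Of the 125 window peaks of replicate 2 against Input, 61 (48.8%) passed, against 0.459% of the list. The mean share was 63.6% ± 20.9 (SD, n = 2). Against LacZ, 0 of 55 window peaks of replicate 1 and 0 of 1 of replicate 2 were tandem pentamer, where the whole lists had 0.0388% and 0%. Of 400-base tiles of the reference, 2.36% in the windows and 0.0803% over the main chromosomes passed the same limit.

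On the other sequences, tandem pentamer peaks made up 71 of 85 in replicate 1 against Input and 18 of 45 in replicate 2 against Input. Against LacZ they made up 4 of 17 and 0 of 2. All 4 contig pentamer peaks called against LacZ overlapped a peak called against Input in the same replicate. The highest of them lay at KI270736.1:156796-158782, with scores of 101.24 against LacZ and 217.65 against Input in the same pull-down.

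In number, the windows were not rich in peaks. They make up 2.04% of the main-chromosome sequence without unknown bases, or 59.92 Mb. They held 2.08% of the main-chromosome peaks of replicate 1 against Input and 0.745% of those of replicate 2 against Input. Against LacZ they held 0.534% in replicate 1 and 0.276% in replicate 2. The peak density in the windows over that outside them was 1.02 and 0.361 in the 2 lists against Input (0.690 ± 0.466, SD, n = 2), and 0.258 and 0.133 in the 2 lists against LacZ (0.195 ± 0.0883, SD, n = 2). In each control the density ratio of replicate 1 was the higher.

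High scores were a different matter. The score ranks peaks by how far they exceeded their control, on a scale of the peak caller that is not settled by the files, and no list went below 50. In replicate 1 against Input, window peaks had a lowest score of 50.04, a median of 86.59 and a highest of 1505.61, where the median over peaks outside the windows was 55.98. Of these peaks, 87 of 194 (44.9%) reached a score of 100, against 2.38% of the list's main-chromosome peaks. In replicate 2 against Input, window peaks had a lowest score of 50.05, a median of 63.43 and a highest of 380.65, with a median of 57.73 outside, and 20 of 125 (16%) reached 100, against 1.66% of the list. Against LacZ, 1 of 55 window peaks of replicate 1 reached 100, against 2.06%, and 0 of 1 of replicate 2 did, against 0.551%.

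**Figure D1:**
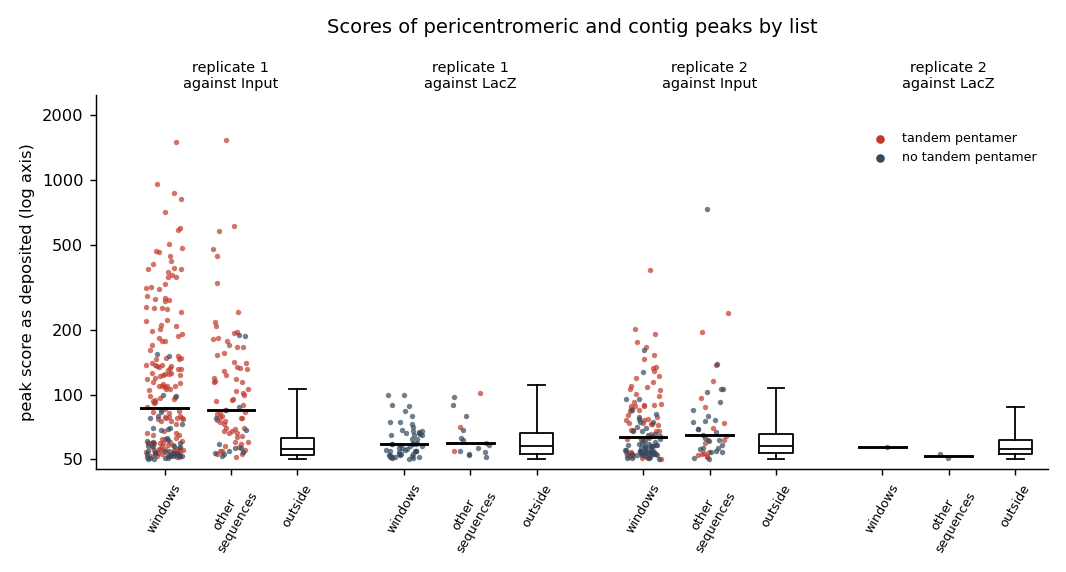
Score of each member peak (log axis) in the 4 lists, for windows and other sequences, with tandem pentamer peaks in red, other peaks in dark blue and a bar at the median; boxes give the median, quartiles, lowest score and 99th percentile of main-chromosome peaks outside the windows. Members above a score of 200 are red in both lists against Input, apart from 1 contig peak at 729.38 in replicate 2, and no member reaches 200 against LacZ.

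Put differently, the windows held 87 of the 222 main-chromosome peaks that reached 100 in replicate 1 against Input (39.2%) and 20 of 278 in replicate 2 (7.19%). Scores of the 2 replicates are on the scales of separate libraries and were not compared for size. In the windows most of the high scores belonged to the pentamer peaks. In replicate 1 their median was 111.2 and 84 of 152 reached 100. The other window peaks had a median of 55.91, and 3 of 42 reached 100. In replicate 2 the median of the pentamer window peaks was 78.87 and 18 of 61 reached 100, against 57.51 and 2 of 64. On the other sequences the lists against Input differed. In replicate 1 pentamer peaks there had a median of 95.49 and 34 of 71 reached 100, against 57.63 and 2 of 14. In replicate 2 they had the lower median, 62.87 with 4 of 18 reaching 100, against 67.22 and 5 of 27 for the rest. Pentamer peaks outside the windows also scored high, with medians of 126.8 and 67.56 in replicates 1 and 2 against Input. Of them, 13 of 21 and 6 of 16 reached 100, so high scores were not particular to the windows. The pentamer window peaks were also wider, with medians of 734 and 896 bases in replicates 1 and 2. The other window peaks had medians of 395 and 398 bases.

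When members were grouped by pentamer density, the median score rose from under 4 to 8 to 12 copies per 100 bases in both lists against Input. In replicate 1, members with 8 to 12 copies per 100 bases had a median score of 123.98 (165 members), those with 4 to 8 copies 67.52 (47 members) and those under 4 copies 56.86 (56 members). In replicate 2 these medians were 82.07 (62 members), 67.93 (11 members) and 58.45 (90 members). Members with 12 or more copies numbered 11 and 6, with medians of 126.31 in replicate 1 and 63.31 in replicate 2, the latter below the medians of both bins from 4 to 12 copies. These bins describe peaks of 1 library each, many of them from the same arrays, and no test was made over them.

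**Figure D2:**
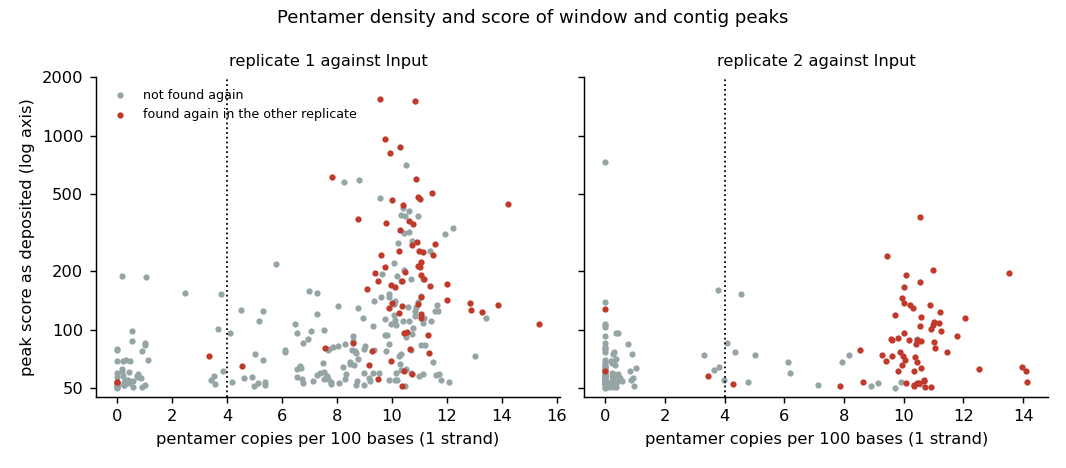
Score (log axis) of each window and contig peak against its pentamer copies per 100 bases on the strand with more copies, for the 2 lists against Input, with the limit of 4 as a dotted line; red points overlap a peak of the other replicate. In replicate 2 the red points lie almost wholly above 8 copies per 100 bases, where 55 of 62 members with 8 to 12 copies and 6 of 6 with 12 or more were found again.

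Within the reference, the pentamer tiles were where the Input-called peaks fell. In the windows, 510 of 3532 pentamer tiles (14.4%) were overlapped by a peak of replicate 1 against Input and 241 (6.82%) by a peak of replicate 2 against Input, and 0 in either list against LacZ. Tiles with a period of about 170 bases alone, the pattern of alpha satellite, numbered 15293, of which 9 (0.0589%) and 7 (0.0458%) were overlapped in the 2 lists against Input. The remaining 130600 tiles were overlapped at 0.0628% and 0.102%. Outside the windows such remaining tiles were overlapped at 0.254% and 0.468%. Sequence of the windows that was not pentamer repeat was therefore called less often than the rest of the genome, in both replicates.

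Pentamer arrays differed widely among chromosomes. In the chr4 window, 68% of 231 pentamer tiles held a peak in replicate 1 against Input and 43.3% in replicate 2. The chr2 window followed with 20.6% and 9.57% of 209 tiles, chr21 with 19.8% and 4.31% of 348, chr20 with 19.2% and 5.07% of 355, and chr10 with 15.3% and 5.78% of 796. The chr22 window had 5.63% and 2.35% of 213 tiles and chr17 had 4.03% and 2.68% of 596. The chr1 window had 1.89% and 2.26% of 265 tiles, the lowest share in both replicates, and chr16 had 1.93% and 2.89% of 519, among the 2 lowest in replicate 1 only. Chromosomes 1 and 16 carry large blocks of satellite II. On the other sequences 10.6% and 3.40% of 1973 tiles held a peak. The order from chr2 to chr10 was not the same in the 2 replicates, and chr4 was first in both.

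**Figure D3:**
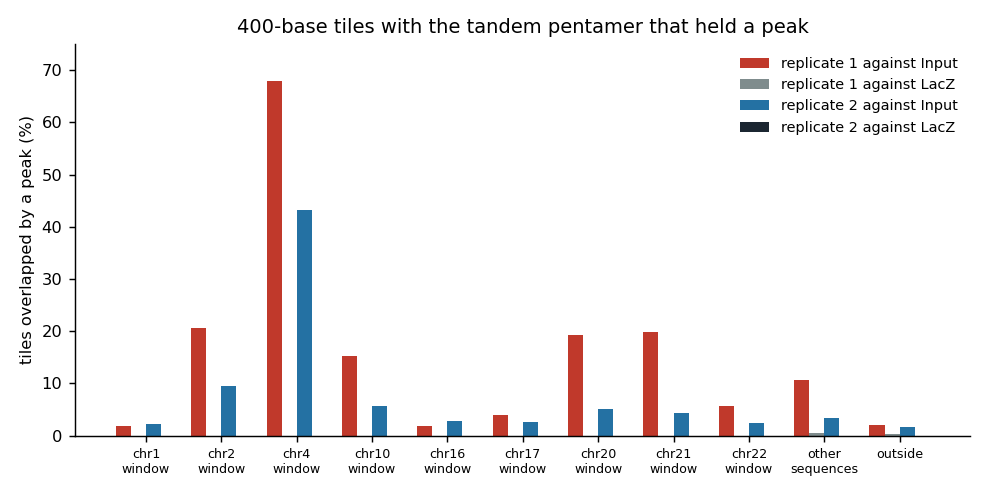
Percent of the 400-base reference tiles with the tandem pentamer that were overlapped by a peak, for each window, the other sequences and the main chromosomes outside the windows, in the 4 lists. The chr4 window stands highest at 68% and 43.3% in the lists against Input, and no window has a bar in either list against LacZ.

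Outside the windows, pentamer peaks numbered 21 and 16 in the 2 lists against Input, of which 14 and 11 were on chromosome Y and 3 and 3 on chromosome 5. On chromosome 5, 19 of 32 pentamer tiles (59.4%) held a peak in each of the 2 replicates. The windows and the other sequences thus held most of the pentamer peaks and not all of them.

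The peaks stood in dense clusters. Pentamer peaks of both Input lists less than 20 kb apart were joined, and the largest such cluster was chr4:49091065-49156645, 28.98 kb beyond the gene CWH43 and with no annotated gene inside any of its peaks. Replicate 1 had 30 peaks in it, covering 38.71 of 65.58 kb, and replicate 2 had 16, covering 24.73 kb. All 46 carried CATTC on the plus strand. A second chr4 cluster at chr4:49632325-49658096 held 14 and 8 peaks, and all 22 carried GAATG. The chr10 cluster, chr10:41857116-41915229, held 31 and 10 peaks, all with GAATG, and lay 659 kb before ZNF33B.

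The cluster of the chr2 window, chr2:89796818-89841254, held 16 and 6 peaks in both orientations (12 with CATTC and 10 with GAATG). Smaller clusters held 8 and 4 peaks at chr17:21968685-21985660, 264.1 kb beyond KCNJ18, and 8 and 1 at chr20:31051972-31075977, 181.7 kb before DEFB115. On chr21, the cluster chr21:10653685-10737353 lay 47.55 kb beyond TPTE and held 13 peaks in replicate 1 and 1 in replicate 2, with none found again. Among the contigs, GL000216.2 held 25 pentamer peaks in replicate 1 and 6 in replicate 2, KI270729.1, assigned to chromosome 17, held 11 and 6, and KI270442.1 held 15 and 0.

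The pentamer peaks called against Input were found again in the other replicate more often than other peaks. A peak was found again if it shared at least 1 base with a peak of the other replicate against the same control, and such lists have no library in common. In the windows 55 of 194 peaks of replicate 1 (28.4%) and 50 of 125 of replicate 2 (40%) were found again, with a mean of 34.2% ± 8.24 (SD, n = 2). Over all main-chromosome peaks the shares were 1.73% and 0.936%. Pentamer window peaks accounted for 53 of the 55 and 48 of the 50. Of the window peaks without pentamers, 2 of 42 and 2 of 64 were found again.

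Against LacZ, 0 of 55 window peaks of replicate 1 and 0 of 1 of replicate 2 were found again, where the whole lists had 0.0582% and 1.65%. On the other sequences, 18 of 85 and 16 of 45 peaks were found again against Input and 0 of 17 and 0 of 2 against LacZ. Pentamer peaks outside the windows were also often found again, 10 of 21 and 10 of 16, where those inside had 53 of 152 and 48 of 61. Wide and densely packed peaks meet more often by position alone, and the peaks of replicate 1 touched 68% of the pentamer tiles of the chr4 window. The part of this dense packing in the overlap was not tested.

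**Figure D4:**
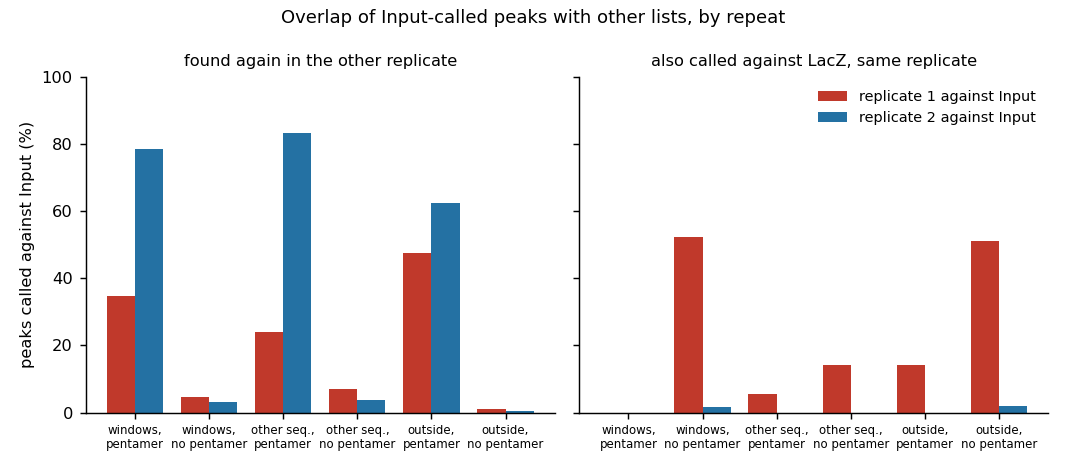
Percent of Input-called peaks that shared a base with a peak of the other replicate against Input (left) or with a peak of the same replicate against LacZ (right), by place and by presence of the tandem pentamer, for replicates 1 and 2. Pentamer peaks reach 34.9% and 78.7% in the windows on the left and 0 on the right, while peaks without pentamers outside the windows reach 51.3% in replicate 1 on the right.

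In replicate 1, setting the same pull-down against the other control gave the reverse picture. Lists of 1 replicate share the pull-down library, so this overlap compares the controls only. In replicate 1, 22 of 194 window peaks called against Input (11.3%) were also called against LacZ, whereas 50.3% of all main-chromosome peaks of the list were. In replicate 2 the numbers were 1 of 125 (0.8%) and 2.05%. The list of replicate 2 against LacZ had only 365 peaks, too few to tell these 2 shares apart. The mean over replicates was 6.07% ± 7.45 (SD, n = 2). None of the 152 and 61 pentamer window peaks was called against LacZ, and at 2.05% few or none of the 61 would be. Pentamer peaks elsewhere were called against both controls in some cases in replicate 1. These were 3 of 21 on the main chromosomes outside the windows and 4 of 71 on the other sequences. In replicate 2 they were 0 of 16 and 0 of 18. The other window peaks of replicate 1 were called against both controls at 52.4% (22 of 42), close to the 51.2% outside the windows. A peak that was called against Input and not against LacZ did not exceed the LacZ pull-down by the caller's limit, and the lists do not give the LacZ signal itself.

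The regions with a peak in both replicates against Input numbered 64. The windows held 48 of them, with 22 on chr4, 11 on chr10, 5 on chr2, 3 on chr17, 2 each on chr16, chr20 and chr22, and 1 on chr21. The other sequences held 16. Of the 64, 61 were tandem pentamer, 1 was also called against LacZ, and no window region among them overlapped an annotated gene or the 5 kb before one. Against LacZ no region was called in both replicates.

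Ordered by the lower of the 2 scores, the first region was chr4:49109167-49111053, with scores of 872.88 in replicate 1 and 380.65 in replicate 2. It is the source of the first sequence above and only 12.87% of its words of 31 bases occurred once in the primary assembly, as measured over the replicate 2 peak. KI270729.1:711-6299 followed with 1535.01 and 240.70. Then came chr10:41895976-41897352 with 503.93 and 201.67, and GL000216.2:79894-80611 with 443.43 and 195.45. The last of these repeated best at 25 bases, 5 pentamers, with 88.6% identity between units.

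Order by score differed between the replicates. The window peak with the highest score of replicate 1, in chr4:49118302-49121504, had 1505.61 there and 101.12 in replicate 2. The chr20 region chr20:31057545-31062111, which held the widest window peak of each Input list, had 958.36 and 119.40. At chr10:41903082-41903825 the scores were 136.81 and 146.15, and at chr4:49634636-49635681 they were 129.58 and 166.11. Over the 64 regions the scores ran from 53.65 to 1535.01 in replicate 1 and from 50.45 to 380.65 in replicate 2.

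**Figure D5:**
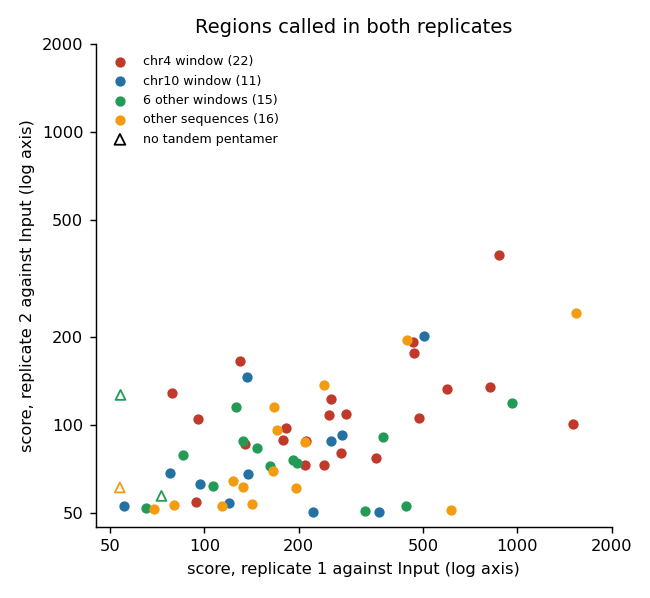
Score in replicate 2 against score in replicate 1 (both log axes, lists against Input) for the 64 regions called in both replicates, by place; open triangles are the 3 regions without the tandem pentamer. The scales of the 2 axes belong to separate libraries, and the chr4 region at 872.88 and 380.65 is the highest of replicate 2 and the fourth highest of replicate 1.

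The 3 regions without the tandem pentamer were of other kinds. At chr21:10388006-10388347 the scores were 53.93 and 126.87, and the peak of replicate 2 repeated best at 6 bases with 71.6% identity. At chr16:46393984-46395295 they were 72.87 and 57.38. At GL000225.1:116643-117147, assigned to chromosome 14, they were 53.65 and 61.30, with a best period of 68 bases, the unit length of beta satellite.

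The members without pentamers in replicate 2 included a family that replicate 1 lacked. In 7 members of replicate 2 against Input and 0 of replicate 1 the best period was 42 bases, which is the unit of the AT-rich human satellite I. The highest was KI270467.1:1889-3881, the source of the AT-rich sequence above, with a score of 729.38 and 22.1% G+C. It was the highest score of any member in that list. A second peak on that contig, KI270467.1:844-1837, had 106.65, and KI270333.1:737-1726 had 138.98. On chr4, 2 of the 7 lay at chr4:49708544-49710179 and chr4:49711172-49711976, with scores of 95.42 and 81.65. A further AT-rich peak of that list, chr4:51107157-51107561, had 69.63 and 24.44% G+C. It repeated best at 84 bases, 2 such units, with 81.71% identity, and is not counted among the 7. None of the 7 overlapped a peak of replicate 1 against Input or of replicate 2 against LacZ. Over all main-chromosome peaks of that list these shares were 0.936% and 2.05%. At these shares few or none of 7 would overlap, so this does not set them apart.

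The chr16 window showed the diverged pentamer arrays. Its highest peak in replicate 2 against Input, chr16:46390233-46391368, had a score of 160.72 and 3.79 copies of GAATG per 100 bases, just under the limit of 4, with a best period of 49 bases. The peak chr16:34587915-34589080 had 153.22 with 4.55 copies, just above it, and the same period. In replicate 1 the highest peak of this window was chr16:46383658-46383941, with 155.05 and 2.47 copies. In the chr1 window the highest peak of replicate 1 was chr1:125080852-125081566, with 152.11, 3.78 copies and a best period of 26 bases, and it was also called against LacZ.

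Few peaks without pentamers passed a limit of 60% identity at the period of alpha satellite. A period of about 170 bases, with at least 60% identity and in the absence of pentamers, was the best period of 4 and 3 members in the lists of replicates 1 and 2 against Input, and of 1 and 0 in those against LacZ. The highest score among these was 97.83, at KI270519.1:113908-114090 in replicate 1 against LacZ, and the same peak had 87.65 against Input. The counts depend on the limit, since further peaks without pentamers repeated best at about 170 bases below it. In replicate 1 against Input, KI270515.1:914-1681 had 186.89 with 57.9% identity and chr20:28815740-28817037 had 98.07 with 59.86%, both above the highest score just named. Identity was 56.88% at chr20:29277221-29277605, 56.23% at KI270442.1:169914-170715 and 55.06% at chr10:39424797-39425132. These peaks were singled out after their values were seen. On the other sequences, tiles with this period and no pentamer were overlapped at 1.72% and 0.938% in the lists against Input, and the tiles with neither repeat at 0.391% and 0.626%. The period alone does not mark alpha satellite, since pentamer arrays also repeat at 170 bases: with them included, 52.6% and 35.2% of the window peaks in the lists against Input passed 60% identity at a lag within a few bases of 170.

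Much of the sequence under the window peaks was not single-copy. The median share of a peak's words of 31 bases that occurred once in the primary assembly was 49.4% and 52.2% for window peaks in the 2 lists against Input (50.8% ± 1.97, SD, n = 2). It was 81.1% in the 55 window peaks of replicate 1 against LacZ, and 100% in peaks outside the windows of both Input lists. Peaks of different places also shared words with each other. Of the distinct words in the chr4 peaks, 11.7% were also in peaks of another place, most often chr10. For chr10 the share was 12.1%, with chr4 the closest, and for the small contig KI270737.1 it was 38.8%, with chr22 the closest. In the chr1 and chr16 peaks the shares were 1.69% and 1.95%, and each was the other's closest place.

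Genes in the windows were touched mainly by the peaks without pentamers. Of 1351 annotated genes in the windows, 18, 45, 38 and 2 had a peak in the gene or the 5 kb before it. The first 2 of these counts are for replicate 1 with Input and with LacZ as control, and the last 2 are for replicate 2 in the same order. For the 218 protein-coding genes the counts were 7, 22, 25 and 1. Of the pentamer window peaks, 2 of 152 and 0 of 61 lay at a gene, none of it protein-coding. Of the other window peaks, 18 of 42 and 35 of 64 lay at a gene in the lists of replicates 1 and 2 against Input. In those against LacZ 41 of 55 and 1 of 1 did. The share of all peaks, or of the window sequence of each kind, that lies at a gene was not computed. These counts therefore describe where the peaks lie and are not read as a preference for or against genes.

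Over all window genes, 1.33% and 3.33% had a peak in replicate 1 (Input, then LacZ as control) and 2.81% and 0.148% in replicate 2. The gene families for which these regions are known are read against these shares, at which few or no peaks fall in families of this size. None of the 93 immunoglobulin kappa genes in the chr2 window, which encode antibody light chains, had a peak. The same held for 14 ANKRD genes, 14 NBPF genes, 8 DUX4-like genes, 6 FRG1 genes and pseudogenes, the 5 NOTCH2 and NOTCH2NL genes, 4 TPTE and BAGE genes, 4 ribosomal RNA genes and 2 POTE genes. Among 13 zinc finger genes, ZNF2 and ZNF37BP had 1 peak each. Of MAP2K3, KCNJ12 and KCNJ18, the potassium channel gene KCNJ12 had a peak, in replicate 1 against LacZ.

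The 3 highest window peaks of replicate 1 against LacZ lay at 2 protein-coding genes and were also called against Input. HJV, which encodes the iron regulator hemojuvelin, had peaks at chr1:146036773-146037307 and chr1:146035545-146035947, with 100.01 and 99.26 against LacZ and 79.31 and 51.77 against Input. SLC25A18, a mitochondrial glutamate carrier gene, had a peak at chr22:17584642-17584921 with 89.05 against LacZ and 57.79 against Input. In replicate 2 against LacZ the only window peak, chr1:147772601-147773369, lay at GJA5, a gap junction gene, with a score of 56.80. None of these was found again in the other replicate.

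In all 42 protein-coding genes had a window peak in some list, and 6 had one in a list of each replicate: POLR1A (the large subunit of RNA polymerase I), IMMT (a mitochondrial inner membrane protein), ACSS1 (a mitochondrial acetyl-CoA synthetase), ABHD12 (a lipid hydrolase), NINL (a centrosomal protein) and CECR2 (a chromatin remodelling factor). Of the 218 protein-coding genes, 23 had a peak in replicate 1 and 25 in replicate 2, with either control. At these counts some genes would have one in each by number alone. In all 6 the peaks of replicate 1 were called against LacZ and those of replicate 2 against Input, and they did not overlap. Between lists of the same control, 0.0582% to 1.73% of main-chromosome peaks were found again, so this lack of overlap does not set these genes apart. For POLR1A the peak of replicate 1 was chr2:86088569-86088955 with 74.76 and that of replicate 2 was chr2:86089563-86089825 with 50.52.

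The remaining high contig and acrocentric peaks of replicate 1 against LacZ were not in pentamer repeats. GL000205.2:76726-77359 had 89.70, KI270733.1:136215-136548 had 79.91 and chr21:8219842-8220176 had 72.81. The last pair shared 157 of the 298 distinct words of 31 bases in the chr21 peak. Neither was called in another list at that place.

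Near the window edges, peaks just inside and just outside were similar in number. With Input as control there were 15 and 26 peaks in replicates 1 and 2 within 0.5 Mb inside the edges and 18 and 20 within 0.5 Mb outside them. With LacZ as control there were 21 and 0 inside and 22 and 1 outside. Median scores just inside and just outside were 54.62 and 59.41 in replicate 1 against Input and 57.20 and 58.39 in replicate 2 against Input. The G+C content of the pentamer window peaks was 40.7% at the median in both lists against Input, and that of peaks outside the windows was 37.8% and 38.8%. Whether G+C content, copy number in HCT116 or the placing of multiply matching reads had a part in any of these values was not tested.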

How the data were processed

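Peak lists were deposited as positions and a score for each peak, 1 list for each CRLM1 pull-down against the Input or the LacZ pull-down of the same number. Per the study's methods, the authors trimmed reads with cutadapt, aligned them to GRCh38 with Bowtie2 and called peaks with MACS2. They called the CRLM1 and the LacZ pull-downs each against Input and went on with CRLM1 peaks free of overlap with LacZ peaks. The lists against LacZ used here are a different comparison, with the LacZ pull-down itself as control. The lists have the layout of a MACS version before MACS2 and no score below 50, so what the score measures exactly is not settled and scores were read within a list only. Comparison of a LacZ pull-down with Input was not analysed here.

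Starts were made 1-based. Members were assigned by midpoint. Pentamer copies, identity of a sequence to itself at lags from 2 to 250 bases, and words of 31 bases occurring once in the primary assembly were computed on GRCh38 with Python 3.11.15 (numpy 2.4.6, pandas 2.3.3, numba 0.67.0, with figures by matplotlib 3.10.9) by scripts that were checked on simulated sequences. A patch contig with 1 peak is not in the genome used and has no sequence features. Genes came from a GENCODE release 44 file whose records are on the main chromosomes only.

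Values are given per list with mean and SD over 2 replicates. No p-value was computed, since peaks of a list come from 1 library and the lists hold no read counts. Regions were named by rule: those called in both replicates by their lower score, and the highest scores of each list, window and the contigs. The members and lists were chosen with earlier results of these data known. The number of columns of values left unused because no sample could be assigned was 0.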

Additional observations from a re-analysis of the deposited data

How the results depend on the processing

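No paired analysis was possible because the results come from no test, and each list already sets a pull-down against the control of its own number. Of 42 alternatives over 17 results, 33 moved the mean by less than the SD between replicates (or, for counts, by less than 1.5 times) and 9 moved it further. Allowing a gap of 1 kb raised the share of Input-called window peaks found again to 44.05%. Leaving out the window with the most peaks gave a mean window share of 0.1991% in the lists against LacZ (0.3982% in replicate 1, 0% in replicate 2). A limit of 2 pentamers per 100 bases gave 0.9091% of window peaks against LacZ (1.818% and 0%). A period of about 170 bases was found in 60.71% of Input-called window peaks at 50% identity and in 15.37% at 70%, and in 2.727% against LacZ at 50% (5.455% and 0%). The median share of words occurring once fell to 33.99% with words of 25 bases and to 44.33% in peaks at or above the median score, both for lists against Input. Peaks on other sequences numbered 5 as a mean over the lists against LacZ when only peaks at or above the median score were kept (10 and 0). The cause of these shifts was not tested, other than that each rule admits more or fewer peaks or shorter words by construction.

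With either replicate left out, the window share of peaks ranged from 0.7451% to 2.079% against Input and from 0.2755% to 0.5335% against LacZ, and the density ratio from 0.3605 to 1.02 and from 0.1327 to 0.2576. The median score for the Input-called window peaks without its 3 highest scores averaged 73.62. No value exists for this setting against LacZ, where replicate 2 has 1 window peak.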
